A study of Homo sapiens with 9 samples.

Results

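Aminoacyl-tRNA synthetases are the enzymes that join each amino acid to its transfer RNA. The gene set followed here holds 38 genes: 19 cytosolic synthetase genes, 3 scaffold proteins of the cytosolic multi-synthetase complex and 16 mitochondrial synthetase genes. Membership was set by gene name, with earlier results of these data known. A gene counted as measured where a probe set was annotated to it and to no other gene, and its brightest such probe set was used. By that rule 33 of the 38 were measured, 17 cytosolic enzymes, 1 scaffold protein and 15 mitochondrial enzymes, among 19775 measured genes in all.

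The cells were HT1080, an established human fibrosarcoma line, seeded on a gel of fibrillar bovine dermal collagen and hybridised to 9 one-colour Affymetrix arrays. There were 3 arrays from cells with no inhibitor, 3 from cells given a protease inhibitor mix for 4 h and 3 from cells given it for 24 h, and the series describes each set of 3 as biological replicates. The mix held GM6001, which inhibits matrix metalloproteinases, at 100 µM, pepstatin A, which inhibits aspartic proteases, at 50 µM, and E64, which inhibits cysteine proteases, at 250 µM. Aprotinin and leupeptin, which inhibit serine proteases and, for leupeptin, cysteine proteases too, were at 2 µM each. All 9 cultures shared the collagen, prepared at 1.7 mg/ml, the 10% serum and 24 h of adhesion before any treatment. The sample titles of the untreated group name a vehicle that is not identified in the sources used here, and the hour at which those cells were harvested is not given there either. Time in culture and time in inhibitor therefore cannot be told apart. The series' design text speaks of a kinase inhibitor cocktail, whereas its title and the listed compounds are protease inhibitors.

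Each synthetase recognises 1 amino acid and its transfer RNAs, and the charged transfer RNA is then carried to the ribosome by an elongation factor. Most amino acids have a cytosolic enzyme, conventionally numbered 1, and a separate nuclear-encoded enzyme that is imported into mitochondria, numbered 2. A few genes depart from this: EPRS1 joins glutamate and proline in a single bifunctional protein, phenylalanine needs the FARSA and FARSB subunits, and GARS1 and KARS1 serve both compartments. Several cytosolic enzymes are held together with the scaffold proteins AIMP1, AIMP2 and EEF1E1 in the multi-synthetase complex. Transcription of many cytosolic synthetase genes is known to be raised by ATF4, a factor made when the kinases that phosphorylate eIF2α sense amino acid shortage or endoplasmic reticulum stress.

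ATF4 binds together with a C/EBP partner at a composite site often written TGATGNAA, and these letters were looked up on both strands in RefSeq promoter windows of GRCh38.p14. Each window ran from 250 bases before to 50 bases after an annotated start. Of the 38 genes 33 had a window, 45 windows in all. TGATGNAA, or its reverse complement TTNCATCA, was found for 7 of 16 cytosolic genes (43.8%), 1 of 14 mitochondrial genes (7.14%), 0 of 3 scaffold genes and 4.46% of 27305 genes with a window. The matches are shown because more of the cytosolic than of the mitochondrial genes held one. Each line gives 30 bases read 5′ to 3′ on the strand of the gene, with the matched letters in capitals.
AARS1: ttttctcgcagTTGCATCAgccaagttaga
CARS1: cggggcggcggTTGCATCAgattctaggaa
GARS1: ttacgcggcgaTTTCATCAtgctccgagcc
IARS1: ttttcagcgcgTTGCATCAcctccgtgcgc
MARS1: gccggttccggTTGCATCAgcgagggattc
NARS1: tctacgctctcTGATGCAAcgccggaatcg
TARS1: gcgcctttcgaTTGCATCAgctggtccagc
YARS2: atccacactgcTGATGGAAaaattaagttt

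These stretches lie at chr16:70289675-70289704 (AARS1, minus strand), chr11:3057407-3057436 (CARS1, minus), chr7:30594834-30594863 (GARS1, plus) and chr9:92293692-92293721 (IARS1, minus). The others lie at chr12:57488053-57488082 (MARS1, plus), chr18:57621804-57621833 (NARS1, minus), chr5:33440956-33440985 (TARS1, plus) and chr12:32756076-32756105 (YARS2, minus). In 4 of the cytosolic genes the first matched base lay close upstream of the annotated start, at -33 in GARS1, -13 in IARS1, -4 in MARS1 and -2 in CARS1. It lay 2 bases past the start in TARS1, 14 past it in NARS1, and further upstream in AARS1 (-187) and YARS2 (-197). With the window limited to the 250 bases upstream of the start, the cytosolic share was 18.8% (3 of 16), against 3.89% of all genes. The mitochondrial share was 7.14% (1 of 14) under that limit too. A list of ATF4 and amino acid response genes had the letters in 6 of 22 (27.3%). A match is a description of letters and not a bound site.

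HARS1 and HARS2, the cytosolic and mitochondrial histidyl enzymes, are neighbours that are read in opposite directions from a shared promoter. Their annotated starts lie 85 bases apart. The 84 bases between them, chr5:140691371-140691454 on the plus strand, are shown because the same stretch lies upstream of both genes.
HARS1 and HARS2: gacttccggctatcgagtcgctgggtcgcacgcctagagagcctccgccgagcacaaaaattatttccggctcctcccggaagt

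The values are linear intensities that had been scaled to a trimmed mean of 100 on every array, so they show each gene's share of the signal and not the total RNA. In bulk RNA, fewer cells of a type and less RNA per cell cannot be told apart. The median intensity per array was 14.2 to 18.2. The line's mesenchymal markers were present, with group means of 80.67 to 11290 for all 8, while the means over 9 arrays of all 5 epithelial and all 4 measured immune markers were below 16, as were those of 3 of 4 endothelial markers, and 0 of these 21 markers passed the adjusted threshold in any comparison. At 24 h 4 of the 8 mesenchymal markers, CALD1, FN1, SPARC and TAGLN, lay wholly below their untreated levels and 3 wholly above, where 12.2% and 12.8% of all genes did, with a median log2 fold change of -0.31 for the 8. Some measures of the preparation moved with the treatment. The poly-A spike transcripts, foreign RNAs added during preparation, were 2.508-fold higher at 24 h and 1.853-fold higher at 4 h than on the untreated arrays (exact permutation p = 0.1 each, the lowest possible with 3 arrays on each side). The ratio of 5′ to 3′ ACTB signal, a measure of RNA integrity, averaged 0.6968 ± 0.038 at 24 h and 0.8928 ± 0.034 on untreated arrays (SD, n = 3, exact permutation p = 0.1). The same ratio for GAPDH lay the other way, at 1.079 ± 0.018 at 24 h and 1.049 ± 0.00058 on untreated arrays (SD, n = 3, exact permutation p = 0.1). Replicate 2 of the 4 h group stood apart: its ACTB ratio was 0.8706, against 0.6824 and 0.6152 on the other 4 h arrays, and on the first principal component of all genes it lay at -13.32, with the other 4 h arrays at 8.562 and 15.66 and the untreated arrays between -23.43 and -18.18. The part of these measures in the results was not tested.

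Across the 33 measured genes, the cytosolic synthetases lay mostly above their untreated levels after 24 h, by modest amounts, and the mitochondrial ones lay on both sides. No member passed the adjusted threshold of 0.05 in limma in any comparison. At that threshold 0.253% of all genes were called at 4 h (0.238% higher, 0.0152% lower), 0.47% at 24 h (0.217% higher, 0.253% lower) and 0.142% between 24 h and 4 h (0.0253% higher, 0.116% lower). Counts of members at an unadjusted p under 0.05, and of members whose arrays did not overlap between groups, are therefore given beside the same counts over all genes. Both treated groups were set against the same 3 untreated arrays, so the 4 h and 24 h values are not independent of each other.

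**Figure D1:**
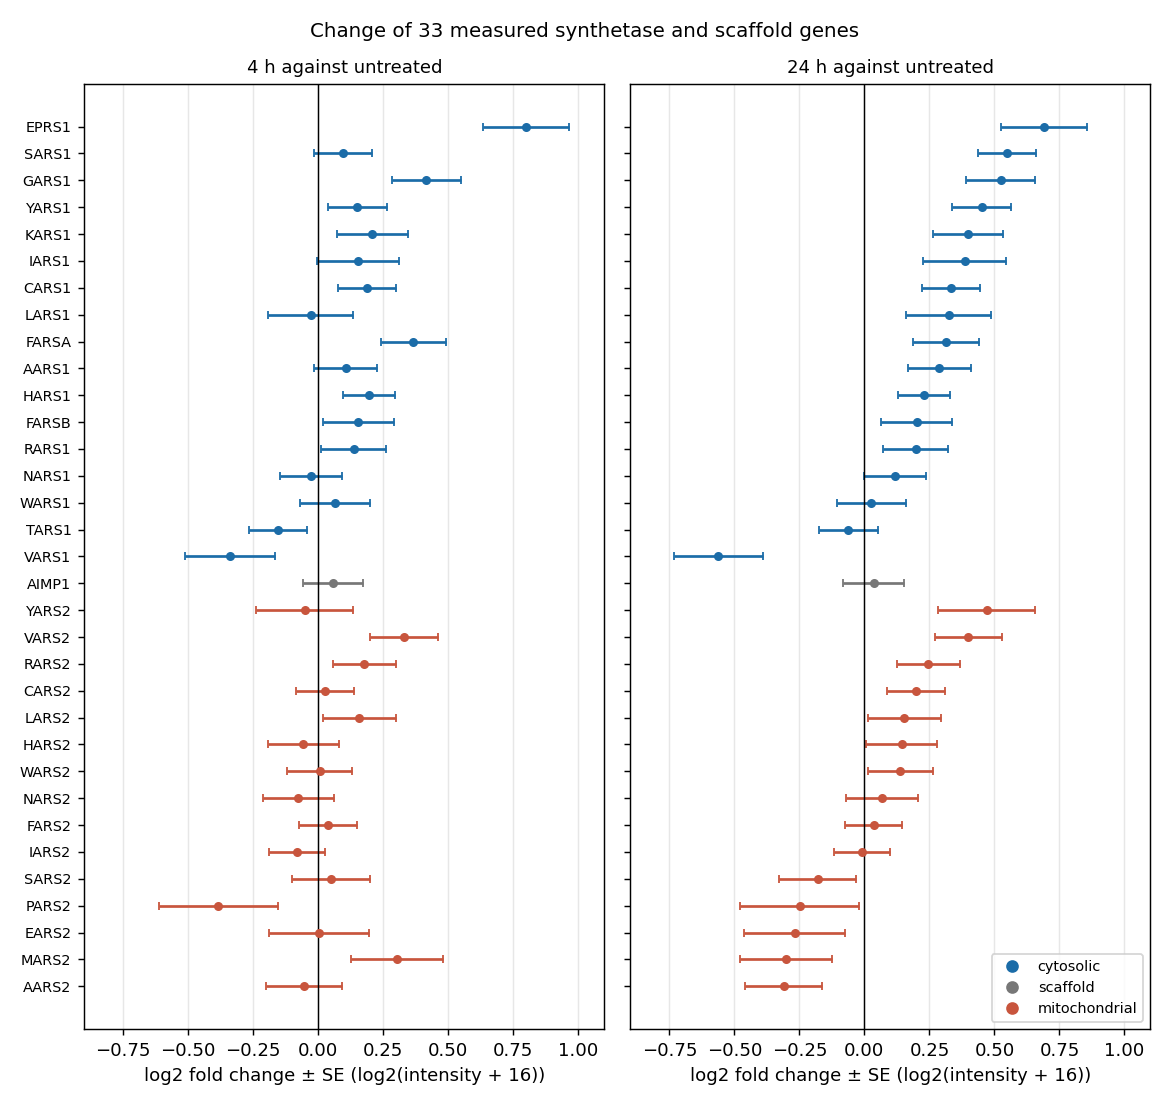
Each point is the log2 fold change of 1 gene from limma on log2(intensity + 16), with its standard error as the bar, at 4 h (left) and 24 h (right) against untreated, ordered by the 24 h value within each class. At 24 h 15 of the 17 cytosolic points lie above 0, and VARS1, at -0.56, is the lowest of all 33.

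At 24 h the median log2 fold change was 0.31 for the 17 cytosolic synthetases, 0.07 for the 15 mitochondrial ones and 0.01 for all genes. Of the cytosolic genes 15 lay above 0 and 2 below, with a range of -0.56 to 0.69. On 14 of the 17 (82.4%) every 24 h array was above every untreated array, where 12.8% of all genes met that rule. The exceptions were TARS1, WARS1 and VARS1, and for VARS1 every 24 h array was below every untreated array. Among the 2871 other genes whose mean intensity fell in the cytosolic genes' range, 414.6 to 7178, the share with every array above was 27.1%. Under this rule, leaving out an array can keep or raise a count but cannot lower it. Without any 1 of the 6 arrays the cytosolic count stayed at 14, where 16.6% to 19.1% of all genes met the rule. At an unadjusted p under 0.05 there were 10 cytosolic genes higher and 1 lower, where 8.15% of all genes were higher and 7.65% lower. The 10 were AARS1, CARS1, EPRS1, FARSA, GARS1, HARS1, IARS1, KARS1, SARS1 and YARS1.

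The 15 mitochondrial synthetases at 24 h split into 9 above 0 and 6 below, from -0.31 to 0.47. Every 24 h array was above every untreated array for 7 of them (46.7%), CARS2, HARS2, LARS2, RARS2, VARS2, WARS2 and YARS2. The reverse held for 2 (13.3%), AARS2 and SARS2. Over all genes the shares were 12.8% above and 12.2% below. At an unadjusted p under 0.05, 2 of the 15 were higher, VARS2 and YARS2, and 0 were lower, where 8.15% of all genes were higher and 7.65% lower. Of the 6099 other genes in the mitochondrial genes' range of mean intensity, 82.29 to 880.8, the shares were 19.8% above and 21.9% below. The median of the cytosolic changes minus that of the mitochondrial changes was 0.247 at 24 h and 0.145 at 4 h, and the difference between the classes was not tested. With a pseudocount of 1 the difference was 0.248 at 24 h and 0.143 at 4 h, and with 64 it was 0.244 and 0.14. With the probe sets of each gene averaged, the cytosolic median at 24 h was 0.197 and the difference 0.129.

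At 4 h the counts moved with single arrays. The cytosolic median was 0.15, the mitochondrial 0.01 and that of all genes 0.01. Of the cytosolic genes 13 lay above 0 and 4 below (LARS1, NARS1, TARS1 and VARS1). Every 4 h array was above every untreated array for 5 of 17 (29.4%), CARS1, EPRS1, FARSA, GARS1 and HARS1, where 9.36% of all genes met that rule, and the reverse held for 0 of 17. At an unadjusted p under 0.05 EPRS1, FARSA, GARS1 and the mitochondrial VARS2 were higher and 0 members were lower, where 6.91% of all genes were higher and 5.43% lower. Without replicate 2 of the 4 h group, the array that stood apart, the count was 10 of 17, where 16.7% of all genes met the rule. Among mitochondrial genes VARS2 lay wholly above at 4 h (6.67% of 15, under the 9.36% of all genes) and PARS2 wholly below (6.67%, where 8.15% of all genes were). Without that same array 5 of 15 lay wholly above, where 16.7% of all genes did. Without replicate 3 of the 4 h group the mitochondrial count was 3, beside 16% of all genes, and without untreated replicate 2 it was 2, beside 13.5%.

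**Figure D2:**
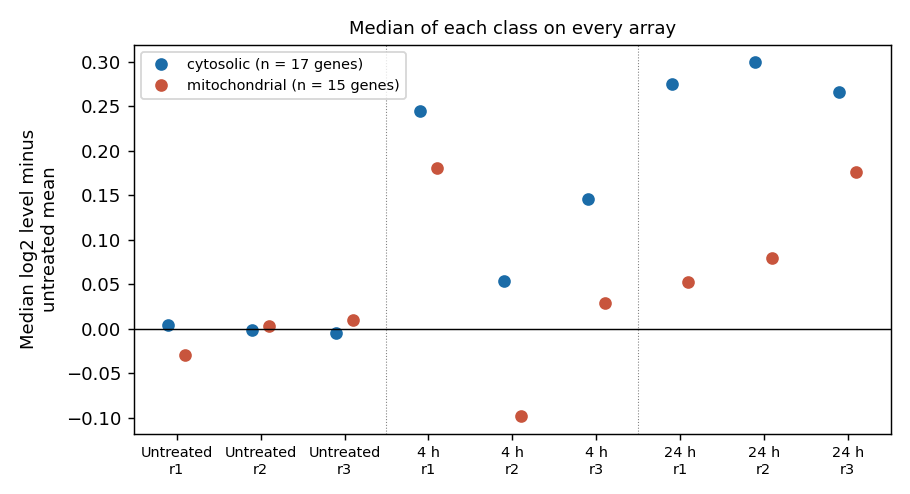
Each point is the median over the genes of a class of the log2 level minus the gene's untreated mean, on each of the 9 arrays. The cytosolic medians of the 24 h arrays lie at 0.27 to 0.30 and those of the 4 h arrays at 0.05 to 0.24, with 4 h replicate 2 lowest, while mitochondrial medians range from -0.10 to 0.18.

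Array by array, the cytosolic median stood 0.24, 0.05 and 0.15 above the untreated mean on the 4 h arrays, and 0.27, 0.30 and 0.27 above it on the 24 h arrays. The 24 h arrays were thus close to each other, and the 4 h arrays were spread. The mitochondrial median was 0.18, -0.10 and 0.03 on the 4 h arrays and 0.05, 0.08 and 0.18 on the 24 h arrays. In both classes replicate 2 was the lowest of the 4 h arrays.

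EPRS1, the glutamyl-prolyl enzyme of the multi-synthetase complex, had the smallest p of any member at 4 h. Its intensity was 929.6, 735.2 and 701.6 on the untreated arrays, 1268.5, 1271.8 and 1604.2 at 4 h, and 1083.9, 1328.1 and 1432.7 at 24 h. All 6 treated arrays were above all 3 untreated ones, and the treated groups overlapped. EPRS1 gave a log2 fold change of 0.80 ± 0.16 at 4 h (SE; 95% interval 0.43 to 1.17; limma adjusted p = 0.103) and 0.69 ± 0.16 at 24 h (limma adjusted p = 0.0912). The other EPRS1 probe sets showed less: 1 with a mean of 597.3 gave 0.10 at 4 h and 0.11 at 24 h, and 1 with a mean of 316.6 gave 0.34 and 0.21. With genes below the 40th percentile of mean value left out, EPRS1 passed the threshold in both comparisons (limma adjusted p = 0.0418 at 4 h and 0.0387 at 24 h).

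The other measured enzymes of the multi-synthetase complex were IARS1 (isoleucine), KARS1 (lysine), LARS1 (leucine) and RARS1 (arginine). With EPRS1 these 5 genes had medians of 0.15 at 4 h and 0.39 at 24 h, against 0.13 and 0.26 for the 12 cytosolic enzymes outside the complex. On all 5 every 24 h array was above every untreated array, where 12.8% of all genes and 27.1% of other genes in the cytosolic range of intensity met that rule. The same held for every measured cytosolic enzyme outside the complex except TARS1, VARS1 and WARS1. KARS1 averaged 8153 ± 308 at 24 h and 6185 ± 363 on untreated arrays (SD, n = 3), a log2 fold change of 0.40 ± 0.14 (SE; limma adjusted p = 0.191). Its other probe set gave 0.17. IARS1 averaged 4032 ± 288 at 24 h and 3079 ± 53 on untreated arrays (SD, n = 3), a log2 fold change of 0.39 ± 0.16 (SE; limma adjusted p = 0.277). RARS1 had the smallest 24 h value of the 5, 0.20 ± 0.13 (SE; limma adjusted p = 0.496). AIMP1, the scaffold protein measured, gave 0.06 ± 0.12 at 4 h and 0.04 ± 0.12 at 24 h (SE), with 95% intervals of -0.21 to 0.32 and -0.23 to 0.30. Its dimmer probe sets differed: 1 with a mean of 220.6 gave -0.05 at 4 h and -0.20 at 24 h, and 1 with a mean of 62.43 gave 0.41 and -0.36, and -0.76 between 24 h and 4 h (limma adjusted p over all probe sets = 0.145).

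LARS1 had the largest difference between the treated groups among these 5. Its intensity was 985.9, 1073.1 and 1101.7 on untreated arrays, 1183, 863.2 and 1072.1 at 4 h, and 1138.5, 1258.4 and 1610.9 at 24 h. The 24 h arrays overlapped those of 4 h and lay wholly above the untreated ones, with replicate 3 of the 24 h group well above its fellows. LARS1 differed between 24 h and 4 h by a log2 fold change of 0.35 ± 0.16 (SE; limma adjusted p = 0.459). The 3 other probe sets of LARS1 gave 0.05, -0.06 and -0.02 in the same comparison, so that value rested on 1 probe set.

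**Figure D3:**
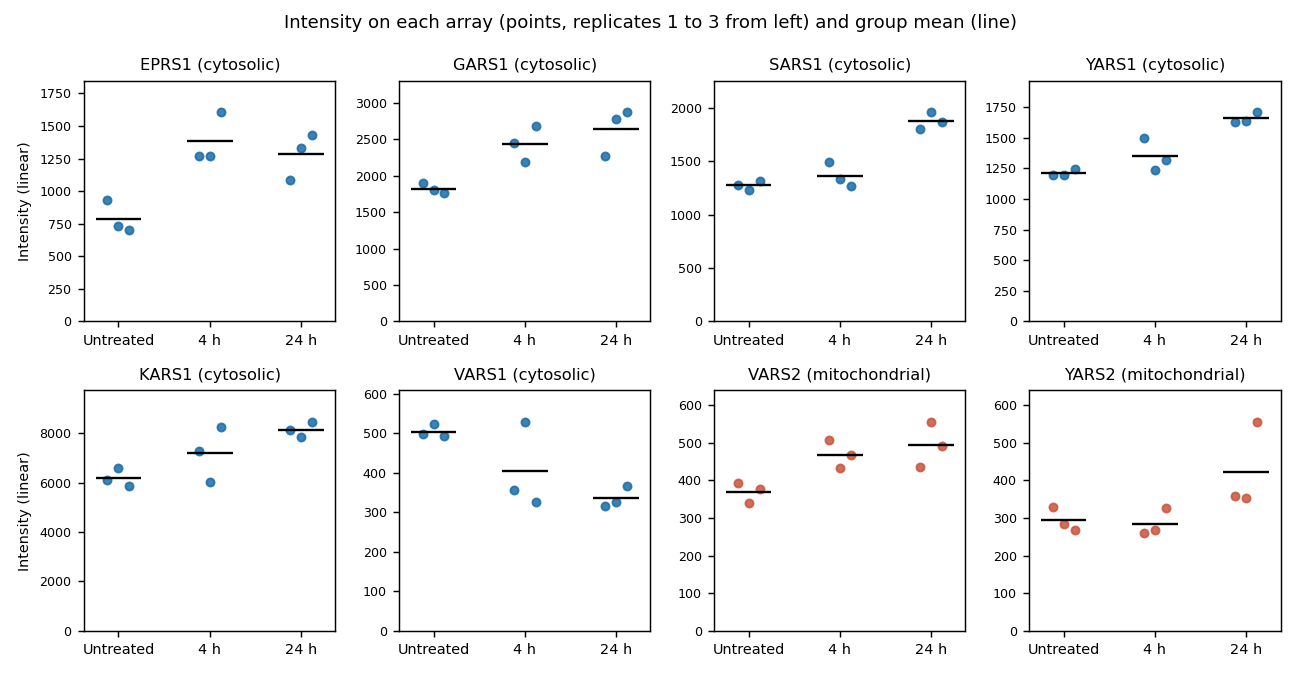
Points are the intensity of 8 synthetase genes on each array, replicates in order from the left, and lines are group means, on linear axes that start at 0. The 3 arrays of 24 h lie wholly above the 3 untreated arrays in all panels but VARS1, where they lie wholly below.

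SARS1, the seryl enzyme, had the smallest p of any member at 24 h. Its intensity was 1278.9, 1232 and 1316 on untreated arrays, 1495.9, 1335.5 and 1268.9 at 4 h, and 1798.4, 1957.7 and 1869.4 at 24 h. The 24 h arrays were above all the others, and the 4 h arrays overlapped the untreated ones. SARS1 was 1.464-fold higher at 24 h than untreated, a log2 fold change of 0.55 ± 0.11 (SE; 95% interval 0.30 to 0.80; limma adjusted p = 0.0669), and stood 0.45 ± 0.11 above 4 h (limma adjusted p = 0.162). It passed the threshold with genes below the 40th percentile left out (limma adjusted p = 0.0235). A dim SARS1 probe set went the other way, its mean being 120.6 without inhibitor, 101.8 at 4 h and 63.73 at 24 h, a log2 fold change of -0.78 at 24 h (limma adjusted p over all probe sets = 0.0608). With the probe sets of each gene averaged, SARS1 stood at -0.12.

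YARS1, the tyrosyl enzyme, showed the same order of groups. Its intensity was 1192.6, 1192.7 and 1242.2 on untreated arrays, 1493.2, 1235.5 and 1314.8 at 4 h, and 1631.2, 1638.1 and 1705.5 at 24 h. Each 24 h array was above all arrays of both other groups. At 24 h its log2 fold change was 0.45 ± 0.11 (SE; 95% interval 0.20 to 0.70; limma adjusted p = 0.101) against untreated, and 0.30 ± 0.11 against 4 h (limma adjusted p = 0.36). Its dim second probe set, whose mean was 45.77 without inhibitor, 96.7 at 4 h and 70.97 at 24 h, was instead highest at 4 h (0.87 against untreated; limma adjusted p over all probe sets = 0.0683).

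GARS1 encodes the glycyl enzyme of both compartments. Its intensity was 1894.9, 1800.2 and 1760.2 on untreated arrays, 2446.3, 2188.5 and 2675.7 at 4 h, and 2261.8, 2779.8 and 2865.6 at 24 h. All 6 treated arrays were above the untreated ones. These values gave log2 fold changes of 0.42 ± 0.13 at 4 h (SE; limma adjusted p = 0.254) and 0.52 ± 0.13 at 24 h (limma adjusted p = 0.105), 1.333-fold and 1.439-fold. GARS1 had a single probe set.

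FARSA, the catalytic subunit of the cytosolic phenylalanyl enzyme, had intensities of 1251.9, 1162 and 1112.9 on untreated arrays, 1746.3, 1485.6 and 1346.9 at 4 h, and 1424, 1458.9 and 1510.5 at 24 h. Both treated groups lay wholly above the untreated one. FARSA gave a log2 fold change of 0.37 ± 0.13 at 4 h (SE; limma adjusted p = 0.281) and 0.31 ± 0.13 at 24 h (limma adjusted p = 0.264), while its second probe set, about as bright, gave 0.09 and -0.01. FARSB, the partner subunit, gave 0.15 ± 0.14 and 0.20 ± 0.14 (SE) on its brightest probe set. A dim FARSB probe set averaged 35.83 without inhibitor, 77.17 at 4 h and 76.7 at 24 h, log2 fold changes of 0.83 and 0.84 (limma adjusted p over all probe sets = 0.105 and 0.0694).

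VARS1, the cytosolic valyl enzyme, was the cytosolic gene that lay furthest below its untreated level. Its intensity was 497, 521.9 and 492.3 on untreated arrays, 355.4, 528.5 and 326.1 at 4 h, and 316.4, 326.5 and 367.4 at 24 h. At 24 h all arrays lay below the untreated ones, and at 4 h replicate 2, the array that stood apart, was at the untreated level. VARS1 gave a log2 fold change of -0.34 ± 0.17 at 4 h (SE; limma adjusted p = 0.468) and -0.56 ± 0.17 at 24 h (95% interval -0.95 to -0.18; limma adjusted p = 0.152). Its dimmer probe set gave -0.18 and -0.28.

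AARS1, the alanyl enzyme, had intensities of 951.9, 1048.2 and 1097.6 on untreated arrays, 1253.3, 1070.5 and 1019.5 at 4 h, and 1289.5, 1272.3 and 1226.4 at 24 h. The 24 h arrays lay above the untreated ones and overlapped those of 4 h. The log2 fold change at 24 h was 0.29 ± 0.12 against untreated (SE; limma adjusted p = 0.288) and 0.18 ± 0.12 against 4 h (limma adjusted p = 0.625). CARS1 (cysteine) and HARS1 (histidine) gave 0.33 and 0.23 at 24 h. The other CARS1 probe sets gave 0.04 (mean 414), 0.19 (mean 326.7) and -0.50 (mean 20.08). NARS1 (asparagine), WARS1 (tryptophan) and TARS1 (threonine) lay nearest 0, at 0.12, 0.03 and -0.06, each with a standard error of 0.11 to 0.13.

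For 24 h against 4 h, the cytosolic median was 0.11 and the mitochondrial 0.07, with -0.005 for all genes. Of the cytosolic genes 13 lay above 0 and 4 below. SARS1 and YARS1 were those with every 24 h array above every 4 h array (11.8% of 17, where 7.35% of all genes met that rule). Among the 2871 other genes in the cytosolic range of intensity the share was larger, 16.6%. Of those genes 61% lay above 0, with a median of 0.049. The 5 enzymes of the multi-synthetase complex had a median of 0.19. CARS2 and YARS2 lay wholly above and EARS2 and MARS2 wholly below among the mitochondrial genes, where 7.86% of all genes lay wholly below. At an unadjusted p under 0.05, SARS1, YARS1 and YARS2 were higher at 24 h and MARS2 was lower, where 5.2% of all genes were higher and 6.15% lower.

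Among the mitochondrial enzymes VARS2, for valine, had the smallest p at both times. Its intensity was 392.6, 338.8 and 376.3 on untreated arrays, 506.1, 432.5 and 466.5 at 4 h, and 435.4, 555.3 and 490.7 at 24 h. All 6 treated arrays were above the untreated ones. VARS2 gave a log2 fold change of 0.33 ± 0.13 at 4 h (SE; limma adjusted p = 0.35) and 0.40 ± 0.13 at 24 h (limma adjusted p = 0.174). VARS2 and VARS1, which charge the same amino acid in different compartments, lay on opposite sides of their untreated levels.

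YARS2, the mitochondrial tyrosyl enzyme and the mitochondrial gene whose promoter window held the ATF4 letters printed above, had intensities of 330.7, 284 and 269.4 on untreated arrays, 259.1, 267.6 and 325.9 at 4 h, and 358.6, 352.1 and 556 at 24 h. The 24 h arrays lay above all others, and replicate 3 was far above its fellows. YARS2 gave a log2 fold change of 0.47 ± 0.19 at 24 h against untreated (SE; limma adjusted p = 0.261) and 0.52 ± 0.19 against 4 h (limma adjusted p = 0.337). Leaving out 1 array at a time gave 0.26 (without that array) to 0.58 against untreated.

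MARS2, the mitochondrial methionyl enzyme, had its highest mean at 4 h. Its intensity was 95, 141.1 and 107.1 on untreated arrays, 152.4, 161.8 and 118.8 at 4 h, and 73.3, 102.2 and 92.9 at 24 h. The 24 h arrays lay wholly below those of 4 h, and both treated groups overlapped the untreated one. The change between 24 h and 4 h was -0.60 ± 0.18 on the log2 scale (SE; 95% interval -1.0 to -0.21; limma adjusted p = 0.241), with 0.30 at 4 h and -0.30 at 24 h against untreated (limma adjusted p = 0.54 and 0.455).

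PARS2, the mitochondrial prolyl enzyme, had intensities of 85.9, 110 and 91.4 on untreated arrays, 81.9, 80.7 and 49.6 at 4 h, and 55.2, 75.7 and 110.2 at 24 h. The 4 h arrays lay below the untreated ones, and the 24 h arrays spread over the range of both. PARS2 gave a log2 fold change at 4 h of -0.38 ± 0.23 (SE; limma adjusted p = 0.553). RARS2, for arginine, had 633.1, 606.7 and 646.6 on untreated arrays, 755.4, 630.8 and 759.4 at 4 h, and 816.2, 719 and 712.6 at 24 h. Its 24 h arrays lay above the untreated ones, with a log2 fold change of 0.24 ± 0.12 (SE; limma adjusted p = 0.368), and its 4 h value was 0.18 ± 0.12 (limma adjusted p = 0.613). The next brightest RARS2 probe set, with a mean of 384, gave 0.16 at 24 h and 0.01 at 4 h. With the probe sets of each gene averaged, RARS2 stood at 0.072 and 0.037.

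AARS2 and SARS2, for alanine and serine, lay wholly below their untreated levels at 24 h. AARS2 had 106.5, 105 and 90.9 on untreated arrays, 118.1, 91 and 82.3 at 4 h, and 68.4, 82.2 and 84.2 at 24 h, a 24 h log2 fold change of -0.31 ± 0.15 (SE; limma adjusted p = 0.341). SARS2 had 183.5, 193.6 and 196.8 on untreated arrays, 201.4, 244.5 and 158.2 at 4 h, and 173.4, 162.3 and 165.2 at 24 h. The log2 fold change of SARS2 was -0.18 ± 0.15 against untreated and -0.23 ± 0.15 against 4 h (SE; limma adjusted p = 0.618 and 0.617). The 8 mitochondrial genes not described so far, CARS2, EARS2, FARS2, HARS2, IARS2, LARS2, NARS2 and WARS2, lay between -0.08 and 0.16 at 4 h and between -0.27 and 0.20 at 24 h.

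**Figure D4:**
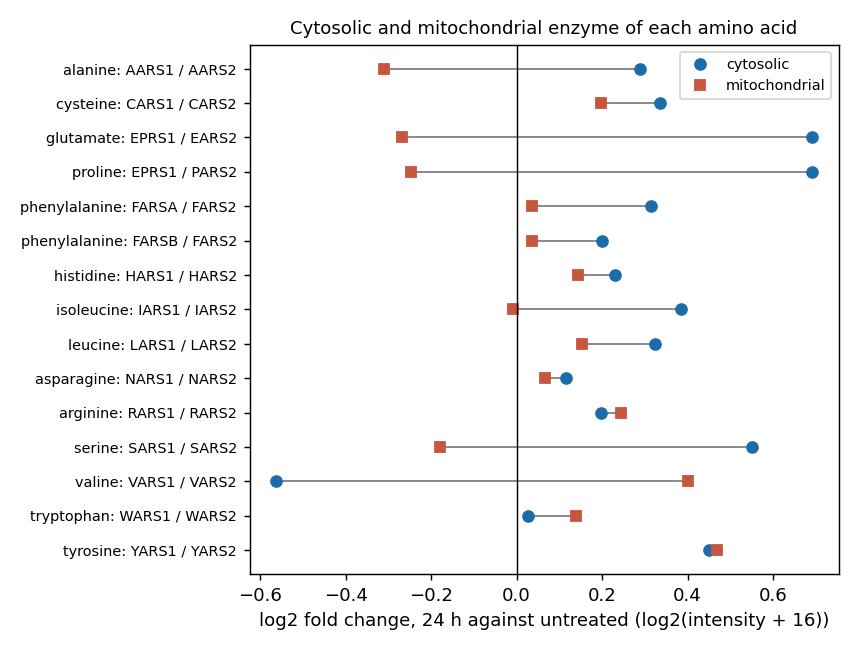
For each amino acid with both enzymes measured, the circle is the cytosolic and the square the mitochondrial log2 fold change at 24 h against untreated. Circles lie to the right of squares in 11 of 15 pairs, and the valine pair is turned the other way by 0.96.

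Setting the enzymes of each amino acid side by side gave 15 pairs, of which those for glutamate and proline share EPRS1 and both phenylalanine pairs share FARS2. The cytosolic change was the greater in 12 of 15 pairs at 4 h and in 11 of 15 at 24 h, and in 7 of 15 between 24 h and 4 h. The cytosolic minus the mitochondrial 24 h value was 0.96 for glutamate (EPRS1 and EARS2), 0.94 for proline (EPRS1 and PARS2), 0.73 for serine and 0.60 for alanine. It was -0.96 for valine, and -0.02 to -0.11 for tyrosine, arginine and tryptophan. The median difference was 0.16 at both times, and it was not tested. The histidine pair, which shares the stretch printed above, gave 0.20 for HARS1 and -0.06 for HARS2 at 4 h, and 0.23 and 0.14 at 24 h.

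The cytosolic genes with the letters TGATGNAA in their window are set here beside those without, and no test was made. The 6 that were measured had median log2 fold changes of 0.13 at 4 h and 0.31 at 24 h, and the 8 measured genes with a window that lacked the letters had 0.17 and 0.27. Genes with the letters ranged at 24 h down to TARS1 at -0.06 and up to GARS1 at 0.52. The NRF1 letters GCGCATGC or GCATGCGC were searched because NRF1 is known to act on genes for mitochondrial proteins, and were chosen after the values were seen. They were found for 2 of 14 mitochondrial genes with a window (14.3%, MARS2 and YARS2), 0 of 16 cytosolic genes and 3.68% of all genes.

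**Figure D5:**
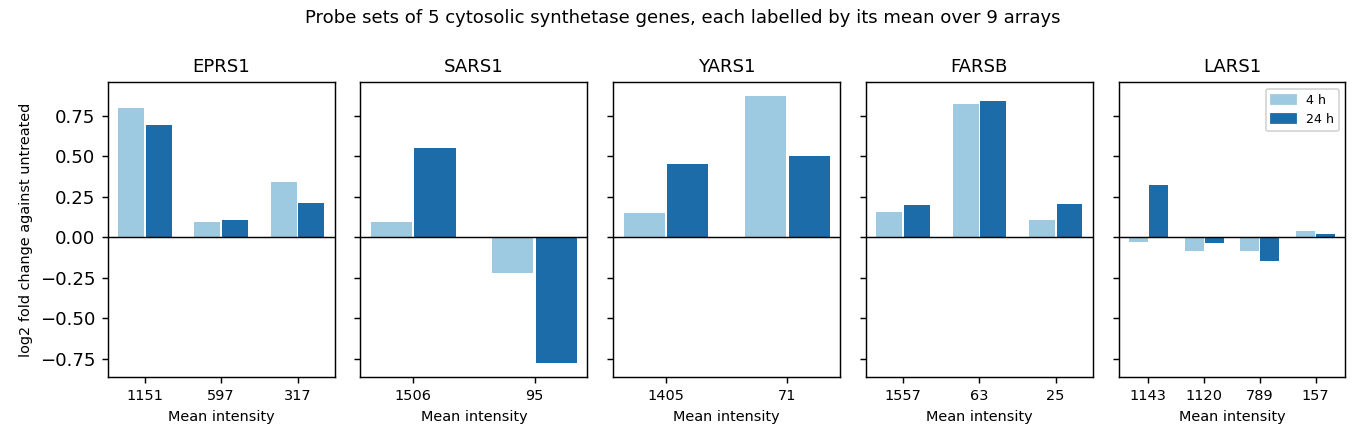
Bars are the log2 fold changes against untreated (light, 4 h; dark, 24 h) of every single-gene probe set of 5 cytosolic synthetase genes, and the label under each is the probe set's mean intensity over 9 arrays. Only the brightest set of SARS1 and of LARS1 stands clearly above 0 at 24 h, and the dim set of SARS1 stands at -0.78.

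Of the 33 measured members 19 had more than 1 probe set. In 12 of the 19 at 4 h, and in 10 at 24 h, at least 1 dimmer probe set had the opposite sign to the brightest. These counts include probe sets near the floor. In TARS1 and FARS2, and in RARS2 at 24 h, every probe set of opposite sign had a mean below 16. MARS1, for methionine, and QARS1, for glutamine, which belong to the complex, and the mitochondrial TARS2 lay only on probe sets that the annotation also gives to a second gene, so no level is stated for them. AIMP2 and EEF1E1 were not analysed here.

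Genes that work next to the synthetases lay on both sides of 0, with 5 of 12 above it at 4 h and 6 of 12 at 24 h. The list of tRNA charging and delivery partners, of which 12 of 16 were measured, held 0 genes past the adjusted threshold in limma in any comparison. At an unadjusted p under 0.05 it held 2 genes higher and 0 lower at 24 h, where 8.15% and 7.65% of all genes were. At 4 h it held 0 in either direction, where 6.91% of all genes were higher and 5.43% lower. Its medians were -0.01 at 4 h and 0.00 at 24 h. GATC, a subunit of the enzyme that converts mischarged glutamyl transfer RNA in mitochondria, averaged 307.9 ± 8.6 at 24 h and 205.3 ± 18.3 on untreated arrays (SD, n = 3; log2 fold change 0.55; limma adjusted p = 0.0673). EEF1A1, the factor that carries charged transfer RNA to cytosolic ribosomes, gave 0.29 at 24 h (limma adjusted p = 0.301), and TUFM, its mitochondrial counterpart, gave -0.25 at both times (limma adjusted p = 0.385 at 24 h and 0.468 at 4 h). PSTK, a kinase on the route to selenocysteine, gave 0.29 at 4 h (limma adjusted p = 0.432), and QRSL1, which works with GATC, gave -0.22 (limma adjusted p = 0.593).

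All 26 genes of the ATF4 and amino acid response list were measured. ASNS, which makes asparagine, rose at 24 h, with 1031.7, 1111.1 and 1052.1 at 24 h, against 562.4, 523.6 and 558.9 on untreated arrays (1.916-fold; log2 fold change 0.94; limma adjusted p = 0.0222). It was 1 of 26 called at 24 h, where 0.217% of all genes were called higher, and the median of the list was 0.09. At an unadjusted p under 0.05, 6 of the 26 were higher at 24 h and 1 was lower, where 8.15% and 7.65% of all genes were. ATF4 itself averaged 2384 ± 202 at 24 h and 1880 ± 119 on untreated arrays (SD, n = 3; log2 fold change 0.34; limma adjusted p = 0.245), and gave 0.53 at 4 h (limma adjusted p = 0.15). At 24 h STC2, a secreted glycoprotein, gave -0.71 (limma adjusted p = 0.0502) and DDIT3, the stress factor CHOP, gave 0.56 (limma adjusted p = 0.0949). At 4 h 0 of 26 passed in limma and 8 were higher at an unadjusted p under 0.05, where 6.91% of all genes were. The smallest p values belonged to PPP1R15B, a partner of the phosphatase that reverses eIF2α phosphorylation, at 0.59 (limma adjusted p = 0.0816), SESN2, an amino acid sensor, at 0.69 (0.101 on the same adjustment), and CHAC1, which degrades glutathione, at 1.104 (0.119). CHAC1 was dim, at 9.9, 34.8 and 31.3 on untreated arrays and 68.8, 77.1 and 62.3 at 4 h. Between 24 h and 4 h STC2 fell by 1.29 on the log2 scale (limma adjusted p = 0.00671), 1 of 26 called, where 0.116% of all genes were called lower.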

How the data were processed

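Expression was measured in 9 arrays, 3 per group, grouped by their titles. The authors deposited linear intensities, scaled so that the mean after trimming 2% at each end is 100 on every array. R 2.9.2 and RMA appear in the submitters' processing notes, with no step stated for either. No detection calls were used. A common mean removes any change in total RNA. The number of arrays limits the precision.

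Of 54675 probe sets, 62 controls were left out, 41091 were annotated to 1 gene, 1801 to several, and 11721 are unnamed here. Symbols were updated through Entrez identifiers, of which 41037 probe sets matched RefSeq. Each gene kept its brightest single-gene probe set, giving 19775 genes, with no filter. Values were taken as log2(intensity + 16), which understates the change of dim genes. The mean of 39.6% of genes lay below 16. Limma 3.58.1 in R 4.3.3 (lmFit, eBayes) was fitted over all 9 arrays with 1 mean per group, two-sided, with Benjamini-Hochberg adjustment over all genes and a threshold of 0.05, after being tested on simulated data. Single array measures were compared with exact permutation tests, two-sided.

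The members and lists were chosen with earlier results of these data known. Values on every array are given for the 4 cytosolic or scaffold and the 4 mitochondrial members with the smallest p in each comparison, and for the partner and ATF4 lists the 3 genes with the smallest p at 4 h and at 24 h are named. Other genes named were chosen after their values were seen. The comparison with genes of like intensity and the NRF1 letters were also added then. Promoter windows are RefSeq's on GRCh38.p14. The planned comparison of protein sequences was not run. Replicate numbers were not taken to pair the arrays. The labels state no shared origin, and the deviations of same-numbered arrays correlated at -0.045 to 0.057, with no pair above 0.1. In 13 of 18 cases, though, the best match of an array in another group bore its own number.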

Additional observations from a re-analysis of the deposited data

How the results depend on the processing

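No synthetase was called lower under any of the 18 settings in any comparison. The number called higher, 0 as reported, became 1 at 4 h (EPRS1) and 1 between 24 h and 4 h (SARS1) with a pseudocount of 64. It became 5 at 24 h with that pseudocount (CARS1, EPRS1, GARS1, SARS1 and YARS1). With genes below the 40th percentile left out it was 1 at 4 h (EPRS1) and 4 at 24 h (EPRS1, GARS1, SARS1 and YARS1). The filter tests fewer genes, and under it the unadjusted limma p changed too (EPRS1 at 4 h, 0.000771 as reported and 0.000476 with the filter). The cause of the added calls was not tested under either setting. The count was 0 under every other setting run, including each array left out in turn, and including the replicate block. Under that block 3, 1 and 3 of all genes were called at 4 h, at 24 h and between them, against 50, 93 and 28 without it. In 13 of 18 cases an array correlated best with its own number among the 3 arrays of another group, a hint from the data and not the design.

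The calls over all genes, in the same order of comparisons, were 6, 1 and 9 with a pseudocount of 1, 273, 833 and 244 with 64, and 175, 585 and 121 with the filter. They were 31, 109 and 34 after quantile normalization, 18, 80 and 20 after median centring, and 26, 49 and 28 with probe sets averaged. They were 2, 202 and 1 with only the groups compared, and without 1 array 2 to 16, 0 to 256 and 6 to 18.

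The cytosolic minus the mitochondrial median was 0.203 at 4 h after quantile normalization (0.145 as reported), and without 1 array it ranged from 0.109 to 0.147. At 24 h it was 0.129 with probe sets averaged (0.247 as reported), and without 1 array it ranged from 0.176 to 0.29. Between 24 h and 4 h it was near 0 and turned sign, from 0.04 to -0.021 after quantile normalization and -0.018 with probe sets averaged, and without 1 array it ranged from -0.005 to 0.06. With probe sets averaged, SARS1 turned to -0.115 at 24 h and -0.051 between 24 h and 4 h, and YARS1 to -0.037 between 24 h and 4 h, through their dim probe sets. Counts of genes with every array above at 4 h ranged, without 1 array, from 5 to 10 (cytosolic) and 1 to 5 (mitochondrial), beside 13% to 16.7% of all genes. At 24 h they ranged from 14 to 14 and 7 to 8, beside 16.6% to 19.1% of all genes. Leaving out an array can only keep or raise such counts, so these ranges do not measure stability. The share of cytosolic genes with the ATF4 letters was 18.8% in the upstream bases alone, and the mitochondrial share stayed at 7.14%.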
